A study of Mus musculus with 172 samples.

Results

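The genes described here belong by symbol to the families that make or destroy the second messenger cAMP, or that form or anchor its kinase. They are every gene whose symbol begins with *Adcy*, *Pde*, *Prkac*, *Prkar* or *Akap* as a numbered family member or a PKA subunit. They are called cAMP genes below, although some act on cGMP or carry the symbol only. The symbols in the deposited tables gave 53 such genes out of 16308 listed in either tissue, 49 of them in cortex and 51 in liver, and 47 in both. *Adcy8* and *Pde11a* were listed in cortex but not in liver, and *Adcy10*, *Pde6c*, *Pde6g* and *Pde6h* in liver but not in cortex. The rule used symbols and no measured value, although the family was picked with earlier results of these data known. The genes were read in mice of the BXD panel, recombinant inbred lines derived from C57BL/6J and DBA/2J. RNA was sequenced from cerebral cortex and liver after 6 h of sleep deprivation (SD) ending at ZT6, or at the same hour in undisturbed controls (Ctr). Each tissue had 39 Ctr and 39 SD libraries: 33 BXD/RwwJ lines, 2 pools of each parental strain, and the reciprocal F1 crosses, 1 pool for each direction. All were young adult males, with no mutation or drug in any group, and a library was as a rule a pool of 3 mice of 1 line. The spread between libraries therefore holds differences between lines together with differences between pools, libraries and read counts. Another 4 BXD/TyJ lines were kept apart and were used as a separate check.

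Adenylyl cyclases turn ATP into cAMP when a receptor engages the stimulatory G protein, and phosphodiesterases hydrolyse cAMP, cGMP or both. Protein kinase A (PKA) is held inactive by regulatory subunits that release the catalytic subunits on binding cAMP, and A-kinase anchoring proteins tether the regulatory subunits to membranes, mitochondria, cytoskeleton or nucleus. In cortical neurons the pathway is known for its part in synaptic plasticity and in arousal by monoamines and adenosine, and in hepatocytes for the response to glucagon in fasting.

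The libraries held 18995492 to 28998853 assigned reads in cortex and 4681101 to 8269401 in liver, so a given difference was measured with more precision in cortex. Levels are log2 CPM, read counts scaled to a common library size, and a change is the SD level minus the Ctr level of the same line on that scale. In cortex all 9 markers of cortical projection neurons were listed, and in liver all 9 hepatocyte markers. The SD of a line's departures from the mean change, over genes, had a median of 0.19 in cortex and 0.38 in liver. Lines BXD90 in cortex, at 0.39, and BXD70 in liver, at 0.72, stood apart from the others. Without BXD90 the cortex counts below went from 14 to 15 genes lower and stayed at 23 higher. Without BXD70 the liver counts went from 12 to 15 genes higher and stayed at 17 lower.

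After SD, the cAMP genes did not move in 1 direction in either tissue. In cortex 23 of 49 rose and 14 fell (limma on paired changes, adjusted p under 0.05 over all genes), beside 36.6% higher and 39.6% lower among all genes. That is 75.5% called, beside 76.3% of all 14896 cortex genes, so the share was close to that of the transcriptome. In liver 12 of 51 rose and 17 fell, 56.9% called beside 53.9% of all 14107 liver genes (26.0% higher and 27.9% lower). The liver rises included 3 small PDE6 subunits, *Pde12* and *Pde4dip*, and the liver falls 2 cGMP-specific enzymes. In cortex *Pde12*, *Pde4dip* and 1 cGMP-specific enzyme were among the rises. The median change was 0.04 in cortex and -0.02 in liver, beside -0.01 and -0.0015 over all genes. The median size of a change, regardless of sign, was 0.11 for the cAMP genes and 0.13 for all genes in cortex, and 0.13 and 0.12 in liver. Direction was the same in all 39 pairs for 10 cAMP genes in cortex and 3 in liver. Over all genes such uniform movement was seen in 11.2% of cortex genes and 2.4% of liver genes. No cAMP gene had SD pools that lay wholly outside the Ctr range, which held for 1.4% of genes in cortex and 0.121% in liver. When the same libraries were compared without pairing the pools of a line (no block), *Adcy1* in cortex and *Adcy6*, *Adcy10*, *Akap10*, *Akap17b*, *Pde2a* and *Pde6h* in liver lost their calls, which left 22 higher and 14 lower in cortex and 8 and 15 in liver. In a bulk sample, fewer cells of a type and less RNA per cell cannot be told apart.

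**Figure D1:**
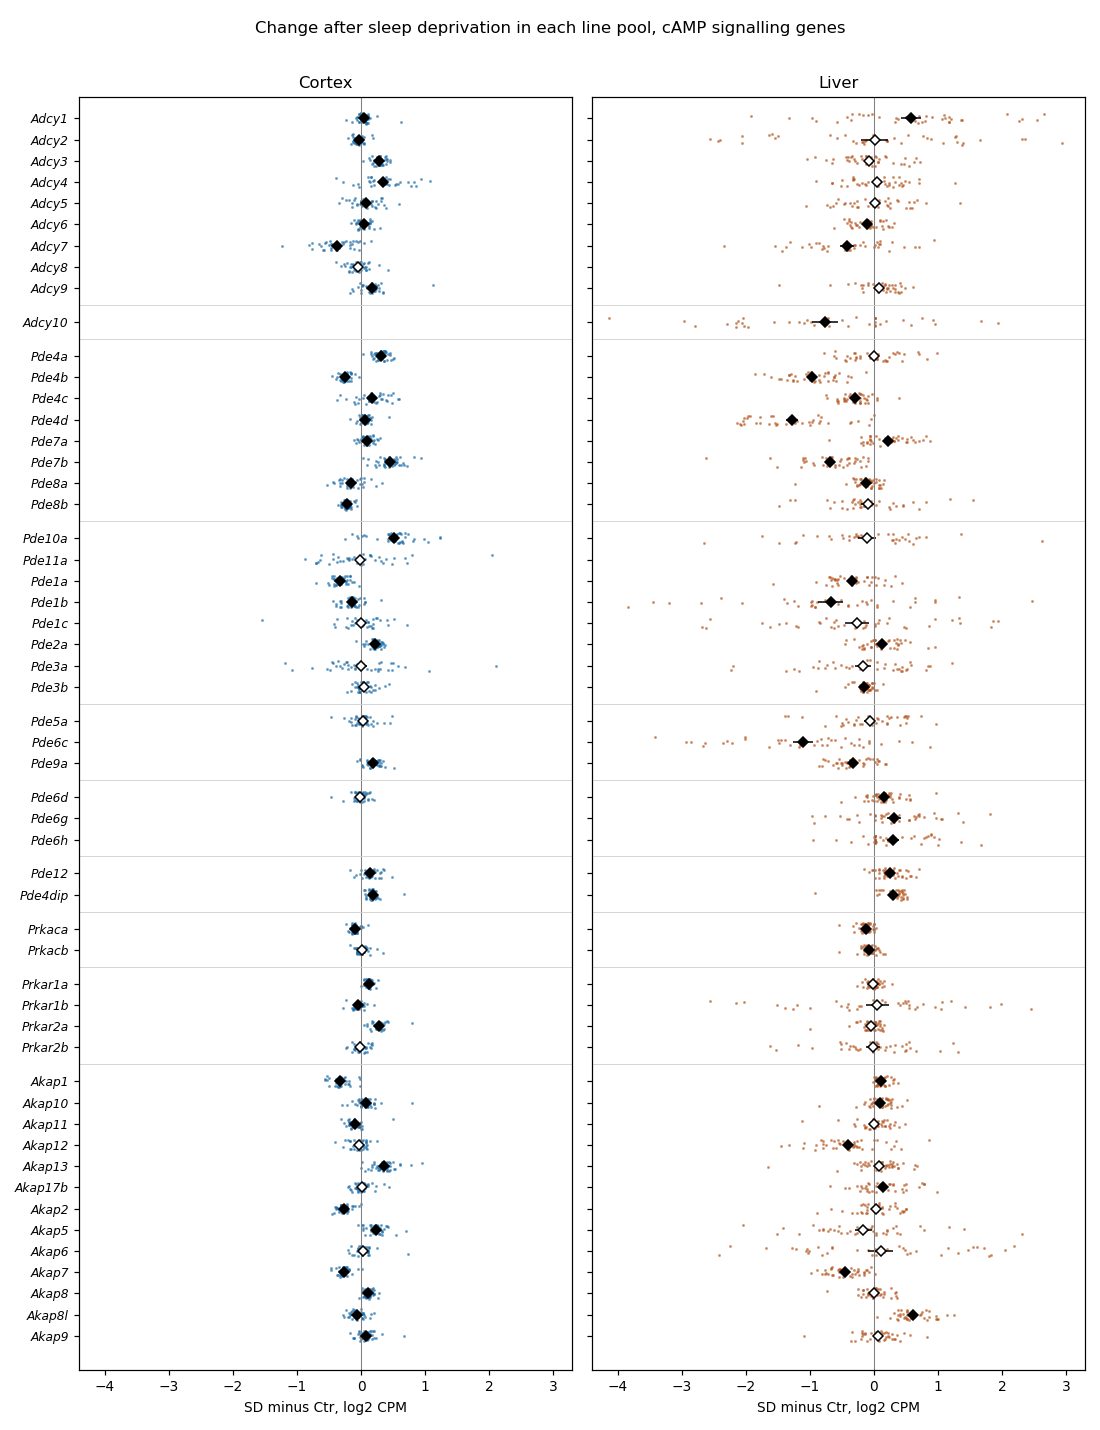
Change after SD (SD minus Ctr, log2 CPM, horizontal axis) of each cAMP gene in cortex (left) and liver (right). Each dot is the pair of pools of 1 line, diamonds and bars are the mean and SE over 39 pairs, and filled diamonds are genes with an adjusted p under 0.05. Cortex means span -0.38 to 0.51, and liver means -1.28 to 0.62 with wider scatter between pairs.

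In Ctr cortex the kinase itself was the best represented layer of the pathway. Per kilobase of exon, which allows different genes to be set side by side, *Prkar1b* was highest at 263 CPM per kb, followed by *Prkar1a* at 175, *Prkacb* at 132 and the calcium-stimulated cyclase *Adcy1* at 125. The leading phosphodiesterase was the cGMP-stimulated *Pde2a* at 102 CPM per kb, and the leading anchor was *Akap8l*, a nuclear protein, at 92.9. Liver was led by *Prkaca* at 67.6 CPM per kb, *Prkar1a* at 55.8, *Prkar2a* at 53.5 and the mitochondrial anchor *Akap1* at 50.3. Its leading phosphodiesterases were *Pde3b*, the insulin-regulated enzyme, at 36.9, *Pde9a* at 35.7 and *Pde8a* at 31.8. The leading liver cyclases were *Adcy6* at 15.6 and *Adcy9* at 13.2. *Adcy1* and *Prkar1b*, both prominent in cortex, were near the detection limit in liver, at 0.169 and 0.322 CPM per kb. Exon lengths were summed over all annotated isoforms, so genes with long alternative exons read low on this scale.

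**Figure D2:**
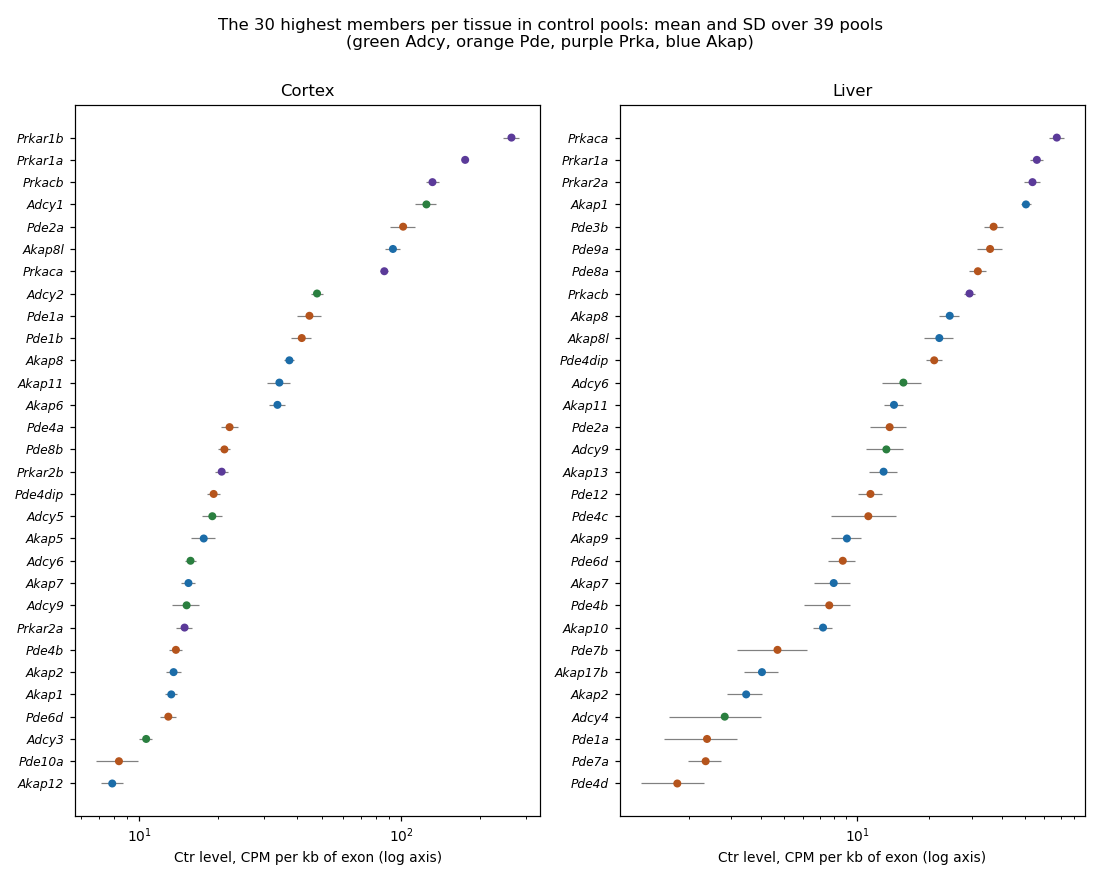
Level of the 30 highest cAMP genes per tissue in Ctr pools, as CPM per kb of exon on a log axis (points, mean; bars, SD over 39 pools). Cortex is led by *Prkar1b* at 263 and liver by *Prkaca* at 67.6 CPM per kb.

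Among the 9 membrane cyclases listed in cortex, 6 rose, 2 fell and *Adcy8* did not pass the test. Over all cortex genes 36.6% were higher and 39.6% lower. *Adcy3*, a cyclase found in neuronal primary cilia, was at 5.86, 6.06 and 6.20 log2 CPM (lowest, median, highest) in Ctr pools and at 6.20, 6.33 and 6.48 in SD pools. It was higher in all 39 pairs, and 38 of the 39 SD pools were above every Ctr pool. The change was 0.28 ± 0.01 (SE, n = 39), or 21.8%, with an adjusted p of 1.1e-22. *Adcy4* rose by 0.35 ± 0.05 (27.4%, adjusted p = 1.4e-08) from a low level, a mean of 85.4 reads per Ctr pool, and was higher in 34 pairs. *Adcy7*, prominent in immune cells including microglia, ranged over 2.88, 3.32 and 4.14 in Ctr and 2.45, 2.94 and 3.44 in SD pools. Its fall of 0.38 ± 0.04 on the log2 scale (adjusted p = 3.9e-11) was seen in 37 of 39 pairs, with the groups overlapping. Microglial markers did not move one way in these libraries: of 8 listed, 3 rose and 3 fell, and their summed level was 307 to 478 CPM in Ctr and 307 to 458 CPM in SD pools, and its part in the change of *Adcy7* was not tested. *Adcy9* rose by 0.16 ± 0.03 in 34 pairs. The 4 other calls, for *Adcy1*, *Adcy2*, *Adcy5* and *Adcy6*, were of at most 0.08 in size. None of the 4 calls held under every setting. That of *Adcy1* was lost without BXD56 (adjusted p = 0.051) and under 4 other settings (0.053 to 0.16), those of *Adcy5* and *Adcy6* with quantile normalization (0.25 and 0.41), and those of *Adcy2* and *Adcy6* in the 33 BXD/RwwJ lines alone (0.068 and 0.063).

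In liver 8 membrane cyclases were listed, and 5 did not pass the test, beside 53.9% of all liver genes that passed. *Adcy6*, the main hepatic form by level, fell by 0.11 ± 0.04 on the log2 scale, in 28 pairs (adjusted p = 0.0062). *Adcy7* fell by 0.42 ± 0.11 in 26 pairs. *Adcy1* was the cyclase that rose, by 0.58 ± 0.16 in 27 pairs, at a mean of 13.4 reads per Ctr pool. The soluble, bicarbonate-sensitive cyclase *Adcy10* was lower by 0.77 ± 0.20 (adjusted p = 0.0014), in 24 pairs, whereas 9 pairs were higher and 6 held no read in either pool. In all, 10 Ctr and 11 SD pools held no read of it.

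The cAMP-specific phosphodiesterases included the largest fall of any cAMP gene in liver, that of *Pde4d*. All 8 were called in cortex, 5 higher and 3 lower, whereas in liver 5 fell, *Pde7a* rose and *Pde4a* and *Pde8b* did not pass. Among all genes 76.3% were called in cortex and 53.9% in liver. *Pde4d*, a principal cAMP hydrolase in many tissues (chr13:109240142-110743669, mm9, plus strand), was at 3.65, 4.59 and 5.46 log2 CPM in Ctr liver and at 2.02, 3.37 and 4.58 after SD. It was lower in 38 of 39 pairs, and 28 SD pools lay below every Ctr pool. The mean change was -1.28 ± 0.09, so that transcript abundance fell by 58.7% (adjusted p = 1.6e-15). In cortex the same gene was at 6.32, 6.66 and 6.84 in Ctr and 6.49, 6.72 and 6.93 in SD pools, a rise of 0.06 ± 0.01 (adjusted p = 0.00013) in 32 pairs.

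*Pde4b*, the isoform known for its role in inflammatory cells and in brain (chr4:101760148-102279864, mm9, plus strand), fell in every pair of both tissues. Its liver level was 5.34, 6.38 and 6.95 in Ctr and 3.89, 5.40 and 6.21 in SD pools. Abundance in liver fell by 48.8%, a log2 change of -0.97 ± 0.06 (adjusted p = 2.6e-18), with 16 SD pools below all Ctr pools. In cortex the level was 7.01, 7.17 and 7.38 in Ctr and 6.78, 6.93 and 7.16 in SD pools, and the change was -0.24 ± 0.01 (adjusted p = 9.0e-22). B lymphocyte markers fell in the same liver libraries: 8 of 8 listed, with a median change of -1.30. Their summed level was 8.46 to 33.4 CPM in Ctr and 3.89 to 17.1 CPM in SD pools, and *Cd79b*, the most abundant of them, was at 2.34 log2 CPM in Ctr against 6.30 for *Pde4b*. Across 39 pairs the change of *Pde4b* and the mean change of the B cell markers gave r = 0.43 (rho = 0.39), the highest r among 51 liver genes. The permutation p was 0.0063 for r and 0.015 for rho, or 0.32 and 0.57 after adjustment over the 51 genes. Without the pools of BXD44 and BXD95, farthest from the median, r was 0.33. Of 6 T cell markers listed in liver, 3 fell and 3 did not pass. The part of lymphocytes in the change of *Pde4b* was not tested.

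*Pde7b*, a high-affinity cAMP hydrolase (chr10:20117810-20444884, mm9, minus strand), moved in opposite directions with no exception among the pairs. In cortex it was at 4.86, 5.35 and 5.62 in Ctr and 5.47, 5.75 and 6.02 in SD pools. All 39 cortex pairs were higher, and 35 SD pools exceeded every Ctr pool. The rise was 0.45 ± 0.03, or 36.4% (adjusted p = 5.8e-19). In liver *Pde7b* was at 3.72, 5.13 and 5.89 in Ctr and 2.50, 4.43 and 5.34 in SD pools, and all 39 pairs were lower. The liver change was -0.68 ± 0.07 (adjusted p = 1.3e-10), where abundance fell by 37.8%. BXD70 showed the deepest fall, of 2.63 on the log2 scale, and leaving out any 1 line gave values between -0.70 and -0.63.

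**Figure D3:**
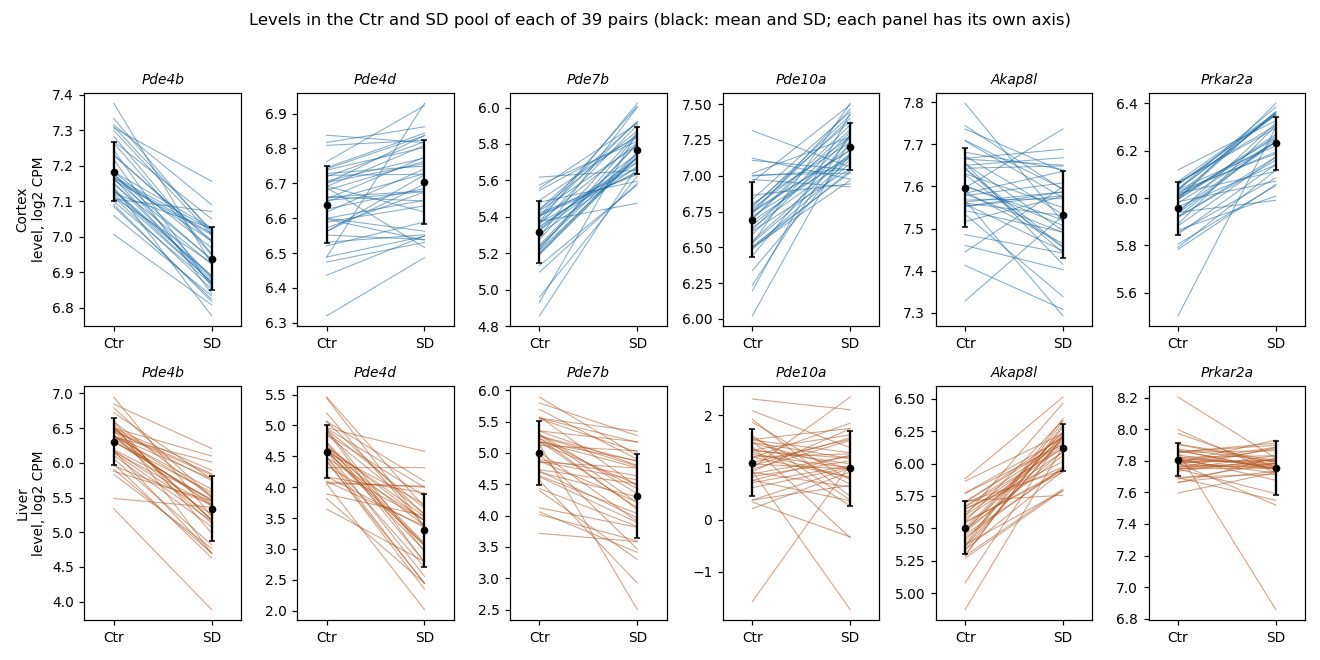
Levels (log2 CPM, vertical axis, 1 scale per panel) of 6 cAMP genes in the Ctr and SD pool of each line, joined by a line, in cortex (top) and liver (bottom). Black points and bars are the mean and SD over 39 pools. *Pde7b* rose in all 39 cortex pairs and fell in all 39 liver pairs, and *Pde4b* fell in all pairs of both tissues.

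The remaining cAMP-specific enzymes moved less. *Pde4a* rose in cortex in all 39 pairs, by 0.31 ± 0.02 or 24.0% (adjusted p = 6.1e-22), from 7.20, 7.38 and 7.64 to 7.43, 7.71 and 7.95, while its liver change was 0.0046 ± 0.066. *Pde4c* rose by 0.18 ± 0.04 in cortex, where it was scarce, and fell by 0.30 ± 0.04 in liver (adjusted p = 1.0e-09), in 36 pairs. *Pde8b* fell in every cortex pair, by 0.22 ± 0.01 on the log2 scale, and 33 SD pools were below every Ctr pool. *Pde8a* fell in both tissues, by 0.15 ± 0.03 in cortex and 0.12 ± 0.04 in liver. *Pde7a* rose in both, by 0.09 ± 0.02 and 0.21 ± 0.05.

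Upstream sequence of 4 of these genes is given because a known route from cAMP to transcription runs through CREB, which binds the palindrome TGACGTCA or shorter parts of it. RefSeq start sites on build GRCm38.p6 were matched for 43 of the 53 genes, and the 250 bases before each start were searched on both strands for this palindrome and for its first 5 and first 6 letters, so that each shorter form is also found wherever a longer one is. The full palindrome was found for 1 of the 43 genes, *Prkar1a* (2.33%, beside 1.77% of 27025 gene symbols with such windows). The 6-letter form TGACGT was found for 5 genes, *Adcy9*, *Akap11*, *Pde4a*, *Pde4b* and *Prkar1a* (11.6%, beside 7.29%), and the 5-letter form TGACG for 12 (27.9%, beside 19.8%). These genes did not share a direction in cortex, where *Adcy9*, *Pde4a* and *Prkar1a* rose and *Akap11* and *Pde4b* fell. Capitals mark the longest match, on the plus strand of the gene or as its reverse complement. *Prkar1a* is shown for 30 bases around its palindrome (chr11:109650889-109650918, plus strand). *Pde4b* (chr4:102421305-102421554, plus strand, for 1 of 4 starts), *Pde4a* (chr9:21183851-21184100, plus strand, for 1 of 3 starts) and *Pde7b* (chr10:20548329-20548578, minus strand, no match) are shown for 250 bases.
Prkar1a: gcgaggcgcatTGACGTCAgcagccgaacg
Pde4b: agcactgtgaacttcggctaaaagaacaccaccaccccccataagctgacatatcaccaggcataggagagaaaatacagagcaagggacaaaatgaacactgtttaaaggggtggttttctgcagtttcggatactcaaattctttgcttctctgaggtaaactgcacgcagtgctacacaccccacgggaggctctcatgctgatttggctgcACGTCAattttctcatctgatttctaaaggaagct
Pde4a: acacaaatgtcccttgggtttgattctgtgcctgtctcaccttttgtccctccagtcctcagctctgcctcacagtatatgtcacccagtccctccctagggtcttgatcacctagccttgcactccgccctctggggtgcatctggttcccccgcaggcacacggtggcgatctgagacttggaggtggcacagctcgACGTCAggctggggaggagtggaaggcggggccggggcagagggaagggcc
Pde7b: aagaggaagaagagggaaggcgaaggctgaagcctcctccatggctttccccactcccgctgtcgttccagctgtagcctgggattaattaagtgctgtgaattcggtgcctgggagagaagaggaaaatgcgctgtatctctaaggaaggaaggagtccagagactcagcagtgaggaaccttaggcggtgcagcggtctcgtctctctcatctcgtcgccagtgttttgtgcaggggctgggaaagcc

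Of 8 phosphodiesterases that hydrolyse both cyclic nucleotides, 4 passed in cortex, 2 higher and 2 lower. Over all cortex genes 76.3% were called, 36.6% higher and 39.6% lower. *Pde10a*, known as an enzyme of striatal projection neurons (chr17:8718237-9179513, mm9, plus strand), had the largest rise of any cAMP gene in cortex. Its levels were 6.02, 6.70 and 7.31 in Ctr and 6.92, 7.18 and 7.50 in SD pools. The change was 0.51 ± 0.05 or 42.4% (adjusted p = 9.8e-13), higher in 35 of 39 pairs. *Pde2a* rose by 0.23 ± 0.02 in 38 pairs. *Pde1a*, a calcium- and calmodulin-dependent enzyme, fell in all 39 pairs, by 0.32 ± 0.02 on the log2 scale, from 7.74, 8.06 and 8.44 to 7.34, 7.74 and 7.93. *Pde1b* fell by 0.14 ± 0.02 in 34 pairs.

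Marker genes of striatal projection neurons varied between cortex pools, and 3 cAMP genes varied with them. Of 8 striatal projection neuron markers, 7 were listed in cortex, of which 2 rose, 1 fell and 4 did not pass. Their summed level was 66.2 to 162 CPM in Ctr and 76.1 to 202 CPM in SD pools, and their mean change per pair ran from -1.63 to 2.51. Across the 39 pairs, that mean change was correlated with the change of *Pde1b* (r = 0.89, rho = 0.87), *Adcy5* (r = 0.88, rho = 0.89) and *Pde10a* (r = 0.78, rho = 0.72). For each of the 3 the adjusted p over 49 genes was 0.000163 for r and for rho, from a raw permutation p of 1e-05, the smallest that 100000 permutations can give. Without the 2 pools farthest from the median, r was 0.85 for *Pde1b* and *Adcy5* and 0.75 for *Pde10a*. Within the 33 BXD/RwwJ lines, r was 0.90, 0.86 and 0.76. *Prkar2b* passed by rho (0.46, adjusted p = 0.044) and not by r (0.44, adjusted p = 0.055). *Pde7b* showed r = 0.17. The striatal change was also used as a covariate, a setting chosen after the data were seen. At a striatal change of 0 the estimate for *Pde10a* was 0.47 (limma, adjusted p = 7.9e-18), and no call of a cAMP gene was gained or lost. The markers came from the same libraries and 3 of them changed after SD, so striatal content and a change in expression cannot be told apart. What accounts for the rise of *Pde10a* was not tested.

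**Figure D4:**
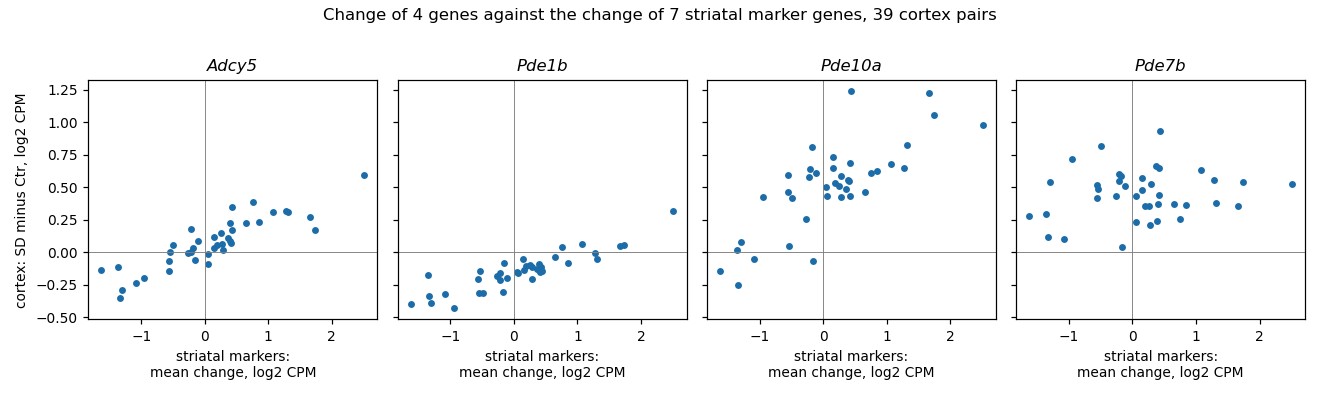
Cortex change (SD minus Ctr, log2 CPM, vertical axis) of *Adcy5*, *Pde1b*, *Pde10a* and *Pde7b* against the mean change of 7 striatal marker genes (horizontal axis, log2 CPM). Each point is 1 of 39 pairs. The points of *Adcy5*, *Pde1b* and *Pde10a* follow the markers (r = 0.88, 0.89 and 0.78), and those of *Pde7b* are spread (r = 0.17).

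In liver 4 of 7 dual-specificity enzymes passed, beside 53.9% of all liver genes. *Pde3b* fell by 0.15 ± 0.03 on the log2 scale in 36 pairs (adjusted p = 4.4e-06), from 7.74, 7.99 and 8.40 to 7.10, 7.88 and 8.04. *Pde1a* fell by 0.34 ± 0.06 in 31 pairs and *Pde1b* by 0.67 ± 0.20 in 29 pairs, the latter at a mean of 11.6 reads per Ctr pool. *Pde2a* rose by 0.12 ± 0.05, a call that was lost without BXD97 or without the DBA/2J x C57/BL/J F1 pool (adjusted p up to 0.052), and in the 33 BXD/RwwJ lines alone (0.081). *Pde10a* changed by -0.11 ± 0.14 and did not pass.

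*Pde9a*, a cGMP-specific enzyme that was among the leading phosphodiesterases of liver, rose in cortex and fell in liver. Cortex pools were at 3.67, 3.98 and 4.29 in Ctr and 3.95, 4.15 and 4.48 in SD, a change of 0.19 ± 0.02 (adjusted p = 1.0e-11) in 36 pairs. In liver they were at 6.25, 6.64 and 7.03 in Ctr and 5.94, 6.28 and 6.78 in SD, and the change was -0.33 ± 0.04 (adjusted p = 8.9e-09) in 32 pairs. *Pde6c*, the catalytic subunit of cone photoreceptors, was low in liver at a mean of 18.9 reads per Ctr pool. It fell by 1.11 ± 0.16 on the log2 scale in 35 pairs (adjusted p = 1.0e-07). The small PDE6 subunits rose in liver: *Pde6d*, a prenyl-binding chaperone, by 0.16 ± 0.04, *Pde6g* by 0.32 ± 0.11 and *Pde6h* by 0.30 ± 0.10, the last pair at means of 6.82 and 15.4 reads. In 12 of the 39 pairs neither pool held a read of *Pde6h*, and of the other pairs 22 were higher and 5 lower. The 12 empty pairs entered its test as slight rises, since no read is -2.77 in Ctr and -2.75 in SD liver pools. *Pde12* and *Pde4dip* carry the symbol but are a mitochondrial nuclease and a scaffold of centrosome and Golgi. They rose in both tissues, *Pde4dip* by 0.18 ± 0.02 in cortex (39 pairs) and 0.29 ± 0.04 in liver (38 pairs), and *Pde12* by 0.15 ± 0.02 and 0.26 ± 0.03.

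Within PKA, cortex showed a rise of 2 regulatory subunits. *Prkar2a*, the widely expressed type II subunit, was at 5.50, 5.99 and 6.12 in Ctr and 5.99, 6.24 and 6.40 in SD pools. It was higher in all 39 pairs, 31 SD pools exceeded every Ctr pool, and the change was 0.27 ± 0.02 or 20.9% (adjusted p = 4.9e-18). *Prkar1a*, the type I subunit that most cells express, rose by 0.12 ± 0.01 or 8.7% in all 39 pairs (adjusted p = 9.2e-16), from 9.55, 9.66 and 9.73 to 9.68, 9.78 and 9.85. Neuronal *Prkar1b* fell by 0.05 ± 0.01 (adjusted p = 0.0026), in 30 pairs. The catalytic *Prkaca* fell by 0.09 ± 0.01 on the log2 scale (adjusted p = 3.7e-10), in 36 pairs, from 7.54, 7.64 and 7.78 to 7.44, 7.55 and 7.66. *Prkacb* (0.01 ± 0.01) and *Prkar2b* (-0.01 ± 0.02) did not pass.

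In liver both catalytic subunits fell and none of the 4 regulatory subunits passed. *Prkaca* was at 7.07, 7.28 and 7.61 in Ctr and 6.92, 7.16 and 7.39 in SD pools, lower in 35 pairs by 0.13 ± 0.02 or 8.6% (adjusted p = 6.4e-08). *Prkacb* fell by 0.07 ± 0.02 in 29 pairs (adjusted p = 0.0027). The changes of *Prkar1a* and *Prkar2a* were -0.01 ± 0.02 and -0.05 ± 0.03. Those of *Prkar1b* (0.05 ± 0.18) and *Prkar2b* (-0.02 ± 0.11) were poorly measured at 7.33 and 13.5 reads per Ctr pool. The liver change was lower than the cortex change for *Prkar2a* (by -0.33 ± 0.03), *Prkar1a* (-0.13 ± 0.02) and *Prkacb* (-0.08 ± 0.02). For *Prkaca* the difference was -0.04 ± 0.02 (adjusted p = 0.049), a call lost under 7 of 10 alternative settings (adjusted p from 0.053 to 0.58).

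The anchoring proteins were divided in cortex, with 5 of 13 higher, 5 lower and 3 not passing. Over all cortex genes 36.6% were higher and 39.6% lower. *Akap13* rose by 0.35 ± 0.03 or 27.8% in 38 pairs (adjusted p = 2.8e-15). *Akap5*, the postsynaptic anchor, rose by 0.24 ± 0.02 in 38 pairs, from 6.68, 6.88 and 7.19 to 6.88, 7.11 and 7.39. *Akap1*, the mitochondrial anchor, was at 5.58, 5.87 and 5.99 in Ctr and 5.34, 5.53 and 5.75 in SD pools. It was lower in all 39 pairs, 29 SD pools were below every Ctr pool, and abundance fell by 20.1% (change -0.32 ± 0.02, adjusted p = 3.7e-19). *Akap7* fell by 0.27 ± 0.01 on the log2 scale and *Akap2* by 0.27 ± 0.02, each in 38 pairs. Since 89.7% of the exon bases of *Akap2* are shared with another gene on the same strand, AF064781, its value is uncertain.

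In liver 4 of 13 anchors rose and 2 fell, beside 26.0% higher and 27.9% lower among all genes. *Akap8l* (chr17:32458370-32487540, mm9, minus strand), a nuclear matrix protein, had the largest rise of any cAMP gene there. Its levels were 4.88, 5.50 and 5.88 in Ctr and 5.76, 6.15 and 6.51 in SD pools. All 39 pairs were higher, 35 SD pools were above every Ctr pool, and the change was 0.62 ± 0.04 or 53.3% (adjusted p = 1.6e-17). *Akap7* fell by 0.45 ± 0.04 in 38 pairs (adjusted p = 6.8e-13), and *Akap12*, a scaffold also found in stellate and endothelial cells, by 0.41 ± 0.08 in 31 pairs. *Akap1* rose by 0.11 ± 0.02 in 37 pairs (adjusted p = 9.8e-08). *Akap9*, *Akap13* and the cyclase *Adcy9* did not pass with all lines, and each was past the threshold as a rise of 0.09 to 0.12 without BXD70.

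The difference between the tissues was tested directly, as the liver change minus the cortex change of the same line. Of 47 cAMP genes 30 differed, 9 with a higher and 21 with a lower change in liver. The background for either direction was 57.6% of 12695 genes, with 28.0% higher and 29.6% lower. The largest differences were those of *Pde4d* (-1.34 ± 0.10, adjusted p = 3.5e-15), *Pde7b* (-1.13 ± 0.08, adjusted p = 7.6e-17), *Pde4b* (-0.72 ± 0.06), *Akap8l* (0.68 ± 0.04, adjusted p = 2.0e-17) and *Pde10a* (-0.62 ± 0.14, adjusted p = 0.00026). The first 3 were lower in liver in all 39 lines, *Akap8l* was higher in all 39, and *Pde10a* was lower in 32. Both tissues gave a call for 20 of the 47 genes, beside 43.7% of all genes listed in both. Of these 20, 13 moved in the same direction and 7 in opposite directions, beside 29.6% with opposite directions among the 5552 genes so called. *Pde7b*, *Pde4c*, *Pde4d*, *Pde9a* and *Adcy6* rose in cortex and fell in liver, and *Akap1* and *Akap8l* fell in cortex and rose in liver. Of these 7, *Adcy6* had the smallest changes (0.04 and -0.11), and its call was lost in cortex with quantile normalization and in the 33 BXD/RwwJ lines alone, and in liver with no block. *Akap1* was higher in liver by 0.44 ± 0.02 in 39 of 39 lines. *Adcy7*, *Pde1a* and *Pde8a* fell in both, and their difference between tissues did not pass (at most 0.05 in size).

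**Figure D5:**
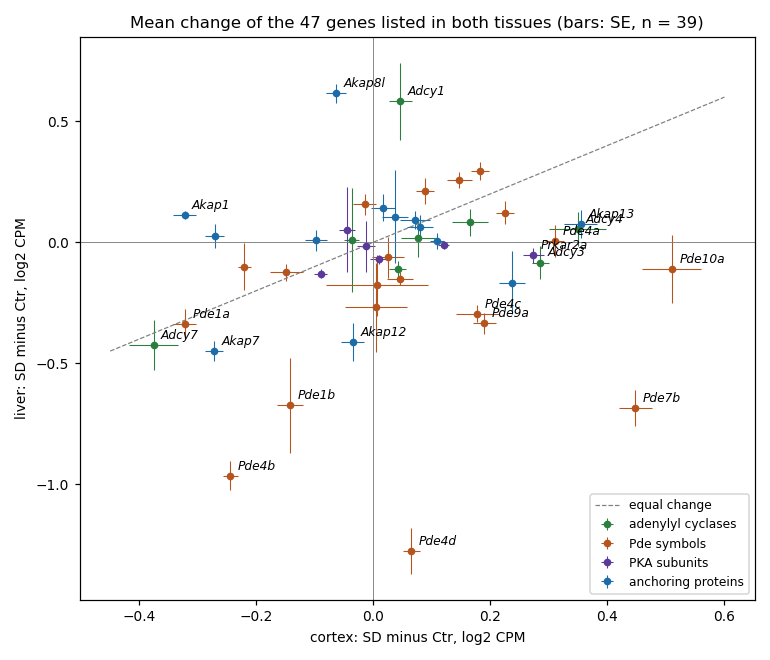
Mean change after SD in liver (vertical axis, log2 CPM) against cortex (horizontal axis, log2 CPM) for the 47 cAMP genes listed in both tissues, with SE bars over 39 pairs. The dashed line marks equal change. *Pde7b*, *Pde4c* and *Pde9a* lie to the right and below 0, and *Akap1* and *Akap8l* to the left and above 0.

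Whether a line with a large cortex response also had a large liver response was examined for the 20 genes called in both tissues. None passed by Pearson's r (two-sided permutation test, Benjamini-Hochberg over 20). At an unadjusted p under 0.05 for r there was 1, *Prkaca* (r = 0.44, p = 0.007, adjusted p = 0.14). By rank it passed, with rho = 0.48 and adjusted p = 0.046, and r was 0.50 without the 2 pools farthest from the median, 0.42 in the 33 BXD/RwwJ lines and 0.33 with libraries centred on their medians. *Pde4d* had the lowest value, r = -0.29 (rho = -0.34, permutation p = 0.037 for rho, adjusted p = 0.37). Its r was -0.36 without the 2 pools farthest from the median, -0.43 in the 33 BXD/RwwJ lines and -0.27 with libraries centred on their medians.

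Ctr levels differed between pools of different lines for several cAMP genes, described here without a test. With 1 pool per BXD line, a difference between lines cannot be told apart from one between pools. In cortex the SD between pools was largest for *Pde4c* (0.34), *Adcy4* (0.32) and *Pde1c* (0.26) among genes above 1 log2 CPM. *Adcy4* was at 2.49 and 2.38 log2 CPM in the C57BL/6J pools, 1.61 and 1.68 in the DBA/2J pools, and 1.90 and 2.12 in the F1 pools, with BXD lines from 1.11 to 2.62. In liver the largest spreads were those of *Pde6c* (0.78), *Pde10a* (0.64) and *Adcy4* (0.55). *Pde6c* was at 0.41 and 1.19 in the C57BL/6J pools and 1.54 and 1.71 in the DBA/2J pools. Liver *Pde4c* was at 5.36 and 5.22 in C57BL/6J and 6.05 and 6.00 in DBA/2J, named after its values were seen. Liver *Pde7b*, named in the same way, was further apart, at 4.02 and 3.72 in C57BL/6J and 5.54 and 5.16 in DBA/2J.

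Presence in some lines and absence in others was seen for *Pde6h* in liver, also named after its values were seen. The 39 Ctr pools fell on either side of a gap between -1.31 and 0.37 log2 CPM, 16 below and 23 above, and every pool was on the same side after SD. Both C57BL/6J pools were below the gap with no read, and the DBA/2J pools, at 1.46 and 2.88, and both F1 pools were above it. In all, 14 Ctr and 13 SD pools held no read of *Pde6h*, and the change after SD in the 23 pools above the gap had a median of 0.22, higher in 19. *Adcy10* in liver was likewise at 2.85 and 1.94 in the DBA/2J pools against -1.77 and -2.77 in the C57BL/6J pools, the last being the value of no read. With BXD lines from -2.77 to 5.05, it showed no such single gap.

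Other genes of the pathway, taken from lists and not from the symbol rule, were counted in the same fits, to be read beside the shares of all genes, 36.6% higher and 39.6% lower in cortex and 26.0% and 27.9% in liver. The lists were chosen with earlier results of these data known, and the paper already names *Fosb* and *Fos* among its most changed cortex genes. A shared direction within a list is therefore not an independent result. Of 13 CREB target genes listed in cortex 12 rose, with a median change of 1.15 (-0.01 over all genes), and *Vgf* (0.88 ± 0.03), *Crem* (0.86 ± 0.03) and *Fosb* (1.76 ± 0.07) had the smallest p. In liver 7 of 12 rose and 2 fell, with a median of 0.18, led by *Dusp1* (0.65 ± 0.07), *Per1* (0.85 ± 0.10) and *Fos* (1.04 ± 0.12). Of 8 genes of the CREB family and its coactivators, 6 rose in cortex, and in liver 3 rose and *Crtc2* fell. *Creb1* rose in both, by 0.28 ± 0.02 and 0.31 ± 0.03. The PKA inhibitor peptides, which block the free catalytic subunit, included *Pkia*, which fell in all 39 cortex pairs (-0.34 ± 0.01), and *Pkib*, which fell in both tissues (-0.33 ± 0.04 and -0.25 ± 0.09). *Pkig* rose in cortex (0.07 ± 0.01). Of other cAMP effectors 5 of 11 rose and 2 fell in cortex, including the exchange factor *Rapgef3* (0.36 ± 0.02). In liver *Rapgef4* rose (0.32 ± 0.03) and *Rapgef3* fell (-0.23 ± 0.07), out of 4 listed. Of the receptors coupled to Gs or Gi, 6 of 17 rose and 7 fell in cortex, and 3 of 12 rose and 6 fell in liver, where the adenosine receptor *Adora1* fell in all 39 pairs (-0.50 ± 0.03). The alpha subunits of Gs and Gi gave 3 up and 3 down of 7 in cortex and 1 up and 2 down of 6 in liver. Anchors without an *Akap* symbol gave 4 up and 4 down of 14 in cortex and 2 up and 2 down of 12 in liver, and PKA-regulated phosphatase inhibitors gave 1 up and 1 down of 5 and of 3.

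The 4 BXD/TyJ lines were not part of these fits. Their mean change had the same sign as the calls above for 37 of 37 cAMP genes called in cortex and 26 of 29 called in liver. The exceptions were *Akap17b*, *Pde1b* and *Pde6d*, whose liver changes in these 4 lines were split evenly between signs. The same sign of the mean did not always hold line by line. Cortex *Prkar1b* had a mean of -0.01 but rose in 3 of 4 lines, and *Adcy2*, at -0.0055, was split 2 and 2. Cortex *Adcy4* rose by 0.02, beside 0.35 in the fits above. Liver *Pde2a* and *Pde6h* were each higher in 2 lines and lower in 2. The share over all called genes is not given here.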

How the data were processed

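The authors sequenced poly(A) RNA as stranded single-end reads, aligned them to mm9 with STAR, counted reads per RefSeq gene with HTSeq on the sense strand, and normalized with edgeR (submitters' processing notes and the study's methods, without versions used here). The deposited values are log2 CPM after TMM scaling with a prior count near 1. The authors pooled RNA of 3 mice per line, tissue and condition, with fewer for BXD79, BXD85 and BXD101. Whole reads were recovered for 100% of values (within 0.02 reads), which gave the depths of 4681101 to 28998853 reads. A value near -4.51 in cortex or -2.77 in liver is 0 reads.

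Groups and lines came from the sample labels. The members and lists were chosen with earlier results of these data known. For each line the Ctr value was subtracted from the SD value, and limma 3.58.1 in R 4.3.3 tested the 39 differences of every listed gene with eBayes and a variance trend, with Benjamini-Hochberg adjustment over 14896 cortex or 14107 liver genes and a threshold of 0.05. The line as a block was used because a label number marks the same line: same-line libraries deviated together, with r of at least 0.30 (median 0.61) in cortex and 0.17 (median 0.47) in liver. The fit was also run on simulated data with 200 changed genes, in which no response differed between lines, and its outcome is not reported here. Correlations used 100000 permutations. Fold changes on this scale understate changes of genes with few reads.

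Named were, per tissue, the 12 largest changes among called members with 1 direction in at least 30 pairs, the 6 PKA subunits, the 3 largest Ctr spreads above 1 log2 CPM, the 5 largest tissue differences, and up to 3 genes per list by smallest p. *Pde6h* in liver reached 30 pairs only because pairs with no read in either pool counted as rises, and 22 pairs with reads were higher. Other members are given as values or counts. A symbol in none of the tables was not analysed here. Voom and prior-count alternatives used the recovered reads. Positions and exon lengths came from GENCODE M1 (mm9), with *Pde4d* in 2 records.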

Additional observations from a re-analysis of the deposited data

Results flagged for a closer look

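Effects of SD differed between the tissues for some cAMP genes, by a test of the liver change minus the cortex change of each line. Of 47 tested, 9 had a higher and 21 a lower change in liver, beside 28.0% and 29.6% of all 12695 genes. Among the cAMP genes *Pde4d* differed by -1.34, *Pde7b* by -1.13, *Pde4b* by -0.72, *Akap8l* by 0.68 and *Pde10a* by -0.62 on the log2 scale. For *Pde7b* the sign of the change was opposite in every line. *Pde10a* had a mean of 15.0 reads per Ctr liver pool, beside 2419 per Ctr cortex pool. What accounts for these differences was not tested.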

How the results depend on the processing

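The counts of cAMP genes higher and lower after SD were within 1.5 times of those reported under each alternative run, and no called change turned its direction. For the difference between tissues, the range over alternatives was 6 to 11 genes with a higher and 18 to 21 with a lower change in liver, and *Prkaca* lost its call under 7 settings, the fit with no replicate block among them. With no replicate block *Pde6h* in liver kept its change of 0.30 but not its call (adjusted p = 0.68, and 0.72 with voom and no replicate block, where the change was 0.32). Quantile normalization gave 19 and 17 in cortex, gained a call for *Prkar2b* (-0.05), and made liver *Prkar2a* a call (-0.07). Signs turned for changes that were not called: *Prkacb* in cortex (-0.0071 with quantile normalization) and *Prkar2b* in liver (0.084 with quantile normalization, 0.0098 without BXD79, BXD85 and BXD101, and 0.0024 with voom and no replicate block). The cause was not tested. The count of genes whose cortex and liver changes were correlated across lines was 0 by Pearson's r, 1 by Spearman's rho and 1 without the 2 pools farthest from the median. Leaving out each line in turn gave 23 to 24 higher and 14 to 15 lower in cortex, and 11 to 15 and 17 in liver. It changed the call of 4 of 49 cortex genes (*Adcy1*, *Adcy8*, *Akap12* and *Pde3b*) and 5 of 51 liver genes (*Adcy9*, *Akap9*, *Akap13*, *Akap17b* and *Pde2a*). Depth limits the liver values of genes under about 20 reads per pool, such as *Adcy1*, *Pde1b* and *Pde6g*.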
